A study of Mus musculus with 4 samples.

Results

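Amino acid transporter genes were taken from an array study of mouse germline stem cells, the cultured form of spermatogonial stem cells. Members were all non-control probes whose gene name begins with Slc1a, Slc3a, Slc6a, Slc7a, Slc36a, Slc38a or Slc43a and a digit. That rule found 110 probes for 62 gene names among the 41174 probes of the array, and it used names alone, no measured value. It also takes in SLC6 carriers of GABA, taurine, creatine, betaine and monoamines, and Slc7a6os, a gene named for lying opposite Slc7a6 that is not a transporter.

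The study turned on Nanos2, which binds RNA and acts in undifferentiated spermatogonia, and asked which mRNAs it regulates. All cells carried Rosa-CreERT2 (spelled Roa-CreERT2 in the design text), a Cre recombinase that works once tamoxifen is bound, and CAG-CAT-3FlagNanos2-pA, a construct with tagged Nanos2 under the broadly active CAG promoter. The control group was 2 arrays of these cells given DMSO, and the other group was 2 arrays of the same cells given 4-hydroxytamoxifen, each for 48 hours. The cells grew in medium with GDNF, EGF and FGF2 on mitomycin-treated embryonic fibroblast feeders, which were taken off before RNA extraction. Because cells lacking the construct were never exposed to the compound, effects of Nanos2, of the recombinase and of the compound cannot be told apart.

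Cells take up amino acids through several carrier families that differ in substrate and driving force. SLC7 light chains work as exchangers bound by a disulphide bridge to an SLC3 heavy chain, which brings them to the membrane. SLC1, SLC6 and SLC38 carriers use the sodium gradient, some SLC36 carriers use protons, and SLC43 carriers let their substrates pass down a gradient. When amino acids run short, the kinase GCN2 raises translation of the transcription factor ATF4, which binds composite elements with C/EBP proteins at amino acid response genes, several transporters among them.

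The core of this composite element, TGATGNAA, was searched on both strands of RefSeq promoter windows of GRCm38.p6, each 300 bases long from 250 bases before to 50 after a start site. It occurred in 1304 of 32851 windows (3.97%) and in 4 of the 65 windows of the 44 members that had one (6.15%). A match is a run of letters, not a measured binding site. The stretches that hold the matches in the 3 members are given, with flanks, because no other member had a match in the windows searched; capitals mark the matches, and TTGCATCA is TGATGCAA on the other strand.
Slc7a11, chr3:50443623-50443709, minus strand: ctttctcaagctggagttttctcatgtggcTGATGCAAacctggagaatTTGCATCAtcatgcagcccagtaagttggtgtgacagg
Slc1a4, chr11:20332680-20332747, minus strand: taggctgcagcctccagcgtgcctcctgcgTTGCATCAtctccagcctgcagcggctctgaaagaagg
Slc7a7, chr14:54417908-54418115, minus strand: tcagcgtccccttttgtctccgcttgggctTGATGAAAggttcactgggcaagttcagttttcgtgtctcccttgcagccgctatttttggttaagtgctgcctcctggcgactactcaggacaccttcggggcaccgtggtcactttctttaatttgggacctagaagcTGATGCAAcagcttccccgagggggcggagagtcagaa

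The Slc7a11 window held 2 matches, beginning 66 and 47 bases before the start site on opposite strands. At least 2 matches were held by 23 of the 32851 windows (0.0700%), 1 of Slc7a11 and 1 of Slc7a7 among them. In Slc1a4 the match began 4 bases before the start and ran across it. In Slc7a7 matches began 141 bases and 1 base before the start, and the second ran across it. The window of another Slc7a7 start site held the second of these, beginning 243 bases before that start.

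Processed signals are given on the scanner's linear scale for each array, and differences are log2, 4-hydroxytamoxifen minus DMSO, after scaling to each array's 75th percentile (705 to 744), with the standard error (SE) of the limma fit and n = 2 arrays per group. A probe was kept where at least 2 of the 4 arrays read it well above background. Nanos2 read 352.8 and 351.7 in DMSO and 903.8 and 1070 in 4-hydroxytamoxifen, a difference of 1.55 ± 0.10 (adjusted p = 0.000866), with both treated arrays above both controls. Between 62.1% and 65.9% of spots were well above background. Of 17537 features tested, 69.5% passed an adjusted p of 0.05, with a median difference of 0.11. Of the 12194 that passed, 57.9% were higher, against 46.7% when arrays were scaled on their medians. The smallest two-sided p of an exact permutation test at this size is 0.333, so every adjusted p leans on a variance that limma shares across genes.

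All 14 tested germ cell markers were above background in DMSO, and 11 were lower in 4-hydroxytamoxifen (78.6%, against 29.3% of all features tested). The changes were unequal: Nanos3 fell by 4.77 and Gfra1 by 2.45, while Ddx4 (-0.17), Sall4 (-0.16) and Mael (0.12) did not pass the threshold. Only Ret, the GDNF receptor kinase, was not well above background in either 4-hydroxytamoxifen array. The markers' summed level, in units of the 75th percentile, was 272 to 274 in DMSO and 187 to 195 in 4-hydroxytamoxifen. Uchl1, which had the largest signal among them and fell by 0.70, weighs most on this sum. Embryonic fibroblast markers went the other way: 19 of 20 were higher (14 of 20 with spike-in scaling), their summed level was 335 to 386 in DMSO and 630 to 659 in 4-hydroxytamoxifen, and none was at background. Macrophage markers were higher in 6 of 8 tested (75%, against 95% of the fibroblast markers and 40.3% of all features tested). Their sum was 16.3 to 18.1 against 35.6 to 36.5, most of it from Lyz2, which rose by 1.07. Cd68 (0.11) and Ptprc (0.02) did not pass the threshold, and Csf1r rose by 0.24. Markers of Sertoli and Leydig cells were higher in 5 of 8 and lower in 2 (62.5% and 25%, against 40.3% and 29.3% of all features). Their sum was 5.45 to 6.06 against 11.7 to 12.3. All 10 proliferation genes were lower, from 90.5 to 93.0 down to 11.4 to 12.3. In RNA from a mixed dish, fewer cells of a type and less RNA of single markers per cell cannot be told apart. The part of these shifts in the transporter values was not tested.

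Of the 62 members, 47 had a probe that passed the filter: 23 were higher, 10 were lower and 14 did not pass the threshold. That is 48.9% higher and 21.3% lower, against 40.3% and 29.3% of all features tested. The members' median difference was 0.41, and 0.24 with scaling on array medians. Their lists went in both directions: the carriers of GABA, taurine, creatine, betaine and monoamines included no member called lower, and in SLC43 more fell than rose. The filter matters here, because 6 members, Slc1a3, Slc3a1, Slc6a4, Slc6a15 and Slc6a20a among them, were not well above background on either DMSO array and entered through 4-hydroxytamoxifen alone, so they had to be higher. Among the 38 members well above background on all 4 arrays, 15 were higher and 10 lower (39.5% and 26.3%), against 39.6% and 30.5% of the 15912 such features, and the median difference was 0.25. These shares lie near the background. In this set 5 members rose and 4 fell by at least 2-fold (13.2% and 10.5%), against 13.7% and 7.91%. Slc7a6os, which is not a transporter, is 1 of the 4 that fell. Without it, 3 of 46 tested members fell by at least 2-fold (6.52%), against 8.19% of all features tested. For 41 of 47 members (87.2%) no array of either group fell within the range of the other, against 86.5% of all features.

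**Figure D1:**
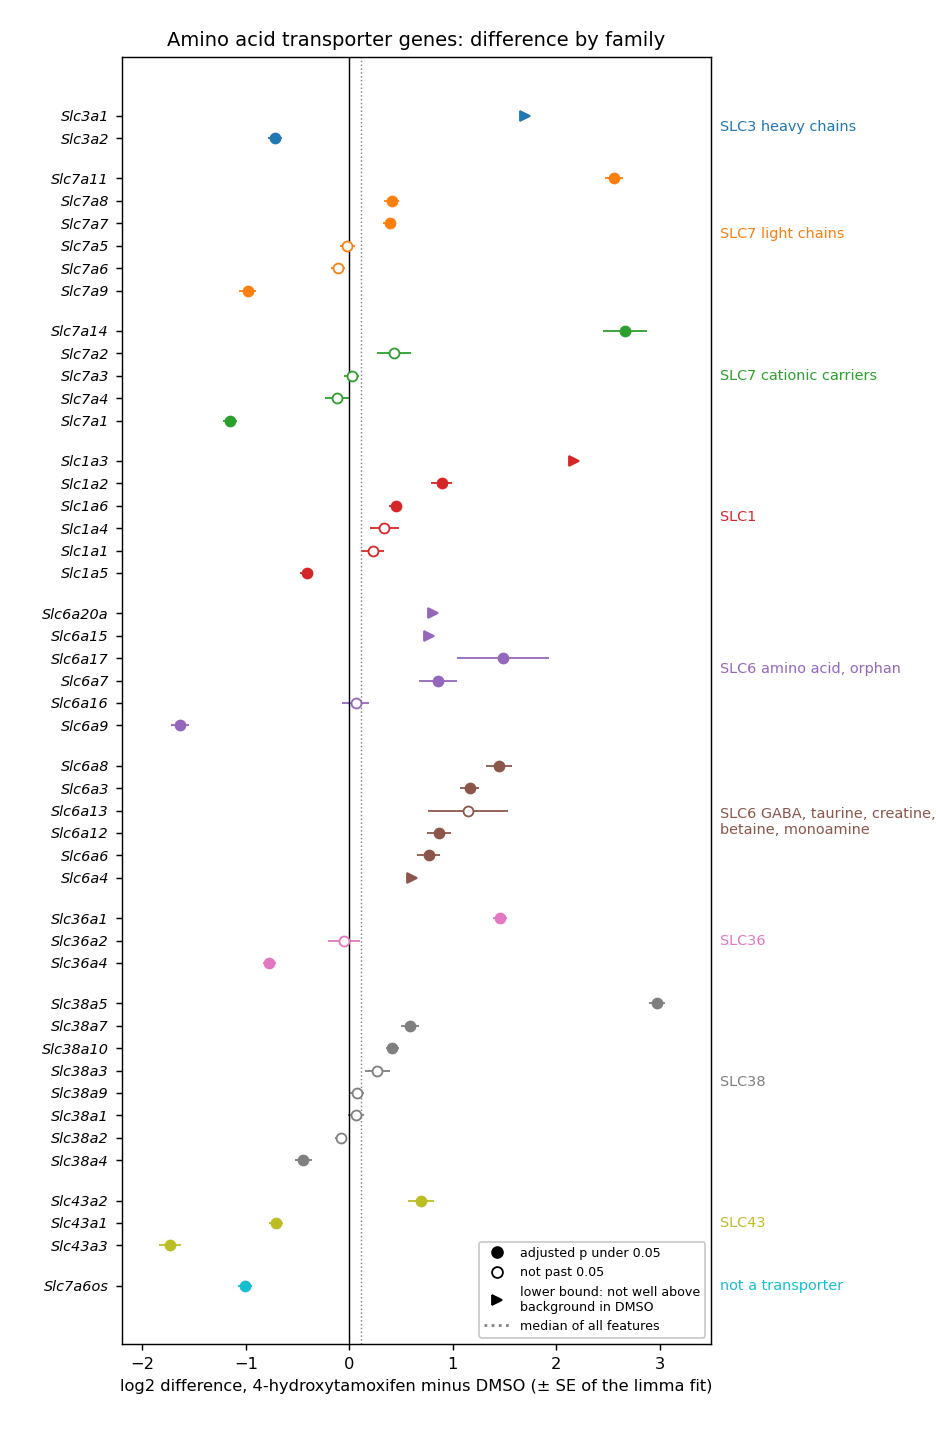
Log2 difference of the tested members that are reported by name, grouped by family, with the SE of the limma fit (2 arrays per group); filled points passed an adjusted p of 0.05, open points did not, and right-pointing triangles are lower bounds for members not well above background in DMSO. The dotted line is the median of all features, 0.11; Slc38a5 lies farthest right at 2.97 and Slc43a3 farthest left at -1.73.

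**Figure D2:**
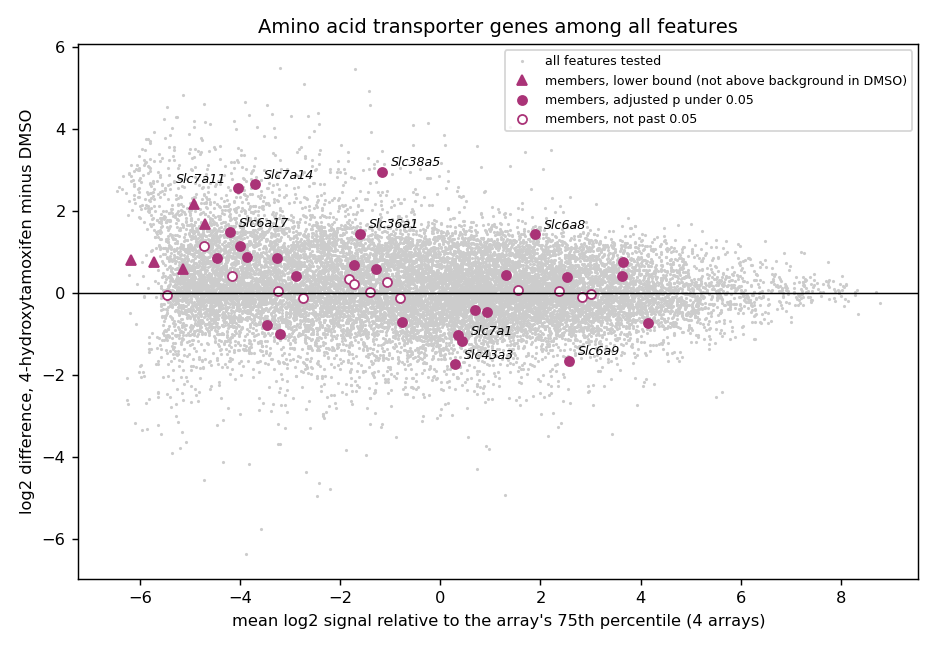
Log2 difference of every tested feature (grey) and of the members reported by name (purple) against the mean log2 signal relative to the array's 75th percentile; triangles are lower bounds. Members lie on both sides of 0 across the range of signal, and Slc38a5, Slc7a14 and Slc7a11 lie near the upper edge.

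Of the heteromer heavy chains, Slc3a2 fell and Slc3a1 entered the test through 4-hydroxytamoxifen alone. Slc3a2 (CD98 heavy chain), the partner of most light chains, read 17308 and 16554 in DMSO and 9645 and 9937 in 4-hydroxytamoxifen. Both treated arrays lay well below both controls, a fall of 0.72 ± 0.07 on the log2 scale (adjusted p = 0.00156). A second Slc3a2 probe fell by 0.96. Slc3a1 (rBAT), the heavy chain of the cystine and dibasic amino acid carrier, read 13.6 and 15.9 in DMSO, not well above background, and 60.8 and 46.5 in 4-hydroxytamoxifen. That is at least 3.25-fold higher, given as a description since the filter fixed its direction.

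Among the tested light chains of Slc3a2, Slc7a11, Slc7a7 and Slc7a8 rose, while Slc7a5 and the brightest probe of Slc7a6 did not pass the threshold. Slc7a11 (xCT), which takes up cystine in exchange for glutamate and holds the paired promoter matches above, read 18.7 and 18.2 in DMSO and 110.5 and 97.6 in 4-hydroxytamoxifen. Its difference was 2.56 ± 0.09 (adjusted p = 0.000409), with only 1 of the DMSO arrays well above background, so background limits the size. The other 3 Slc7a11 probes did not pass the filter. Slc7a7, the y+LAT1 exchanger of basic for neutral amino acids, rose from 3627 and 3865 to 4613 and 4730, by 0.39 ± 0.07 (adjusted p = 0.00789). Slc7a8 (LAT2), a carrier of neutral amino acids, rose from 85.7 and 89.7 to 115.3 and 107.1, by 0.41 ± 0.07 (adjusted p = 0.00877). With spike-in scaling neither Slc7a7 nor Slc7a8 passed, which left Slc7a11 as the light chain that rose there.

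Slc7a5 (LAT1), the main carrier of large neutral amino acids such as leucine, read 5788 and 6314 in DMSO and 5818 and 5550 in 4-hydroxytamoxifen. The groups overlapped, and the difference of -0.02 had a 95% interval of -0.23 to 0.19. Slc7a6 (y+LAT2) read 436.9 and 446.4 against 402.2 and 378.0 by its brightest probe, a difference of -0.11 ± 0.07 (adjusted p = 0.214). Its second probe, described below, was called lower at -1.45 (adjusted p = 0.000672 in the limma fit over probes). Slc7a6 was also called lower with median scaling and with its probes averaged. Slc7a9, the light chain that pairs with Slc3a1 rather than Slc3a2, was the light chain whose brightest probe fell. It read 119.7 and 107.1 in DMSO and 54.8 and 54.4 in 4-hydroxytamoxifen, a fall of 0.98 ± 0.08 (adjusted p = 0.00136). Over the 6 tested of 10 light chains, 3 rose and 1 fell by their brightest probes (50% and 16.7%, against 40.3% and 29.3% of all features). Their median was 0.18 (0.02 with spike-in scaling).

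**Figure D3:**
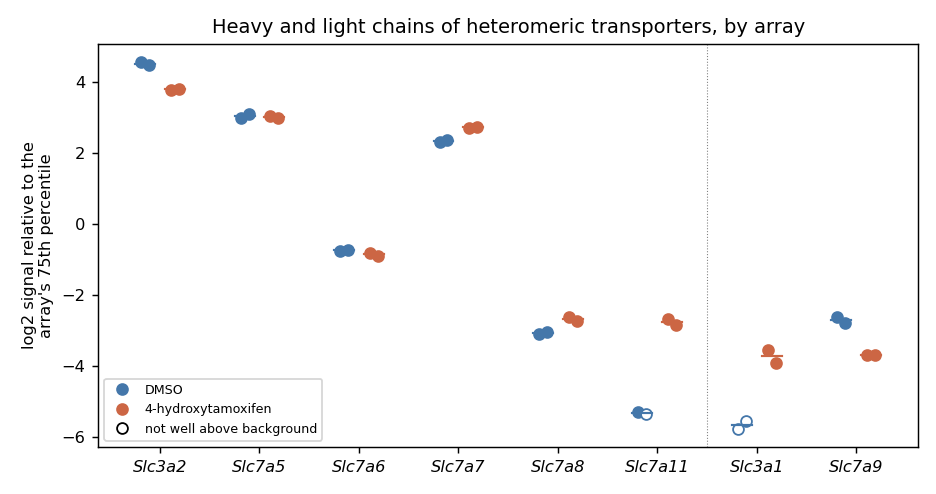
Log2 signal relative to the array's 75th percentile for heavy chains and light chains, by array (blue DMSO, orange 4-hydroxytamoxifen, open points not well above background, short bars group means); the dotted line sets apart Slc3a1 with its light chain Slc7a9. Within each gene the groups can be compared, while heights of different genes cannot, since each probe has its own response; Slc3a2 and Slc7a9 were lower and Slc7a11 and Slc3a1 higher.

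Among the 5 SLC7 carriers of the cationic branch, which need no heavy chain, 1 rose and 1 fell. That is 20% each, against 40.3% higher and 29.3% lower of all features. Slc7a1 (CAT1), the widely expressed arginine and lysine carrier, read 1508 and 1459 in DMSO and 633.3 and 637.7 in 4-hydroxytamoxifen. The arrays of each group lay close together and far from the other group, a fall of 1.15 ± 0.06 (adjusted p = 0.000659); a second probe fell by 0.68. Slc7a14, a family member reported in lysosomes, read 18.7 and 27.1 in DMSO and 124.6 and 149.1 in 4-hydroxytamoxifen, a rise of 2.67 ± 0.21 (adjusted p = 0.00118). Its second probe, 2347 bases toward the 3′ end, read 22.2 and 19.9 against 23.5 and 19.5 and differed by 0.09. The remaining members were Slc7a2 at 0.43 (adjusted p = 0.0722), Slc7a3 at 0.02 and Slc7a4 at -0.12, none past the threshold.

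SLC1 holds the high-affinity glutamate carriers and the neutral amino acid exchangers. Slc1a3 (GLAST), a glutamate carrier best known in glia, read 4.58 and 13.2 in DMSO, not well above background, and 74.6 and 73.2 in 4-hydroxytamoxifen. It was at least 4.51-fold higher, a direction that the filter fixed. Slc1a2 (GLT-1) differed by 0.89 ± 0.10 and Slc1a6 (EAAT4) by 0.45 ± 0.06, both past the threshold, although Slc1a6 did not pass with spike-in scaling. Slc1a5 (ASCT2), an exchanger that brings glutamine into dividing cells, read 1405 and 1367 in DMSO and 977.0 and 1008 in 4-hydroxytamoxifen, a fall of 0.41 ± 0.06 (adjusted p = 0.00595). Slc1a4 (ASCT1), which holds a promoter match, stood at 0.34 by its brightest probe (adjusted p = 0.0946) and passed under 5 of 14 alternatives, and its second probe was called higher at 0.38 (adjusted p = 0.00873 in the limma fit over probes). The brightest probe of Slc1a1 (EAAT3) stood at 0.23 (adjusted p = 0.143). In all, 3 of 6 tested SLC1 genes were called higher, Slc1a3 through 4-hydroxytamoxifen alone, and 1 fell. That is 50% and 16.7%, against 40.3% and 29.3% of all features. The SLC1 median was 0.39.

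In SLC6, amino acid carriers and orphans gave 4 rises and 1 fall among the 6 tested of 11. That is 66.7% and 16.7%, against 40.3% and 29.3% of all features, and 2 of the 4 entered through 4-hydroxytamoxifen alone. Slc6a9 (GlyT1), the sodium- and chloride-driven glycine carrier, had the largest fall of them: it read 7924 and 7520 in DMSO and 2238 and 2495 in 4-hydroxytamoxifen, a 3.11-fold fall (-1.64 ± 0.09, adjusted p = 0.00062). No treated array came near a control. Slc6a17, a vesicular carrier of neutral amino acids, read 15.8 and 36.8 in DMSO, with 1 of these well above background, and 57.3 and 72.5 in 4-hydroxytamoxifen. Its difference of 1.49 ± 0.44 passed narrowly (adjusted p = 0.0403), while a second probe differed by 1.69. The Slc6a17 call was lost without either 4-hydroxytamoxifen array and also without a filter on dim probes.

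The proline carrier Slc6a7 differed by 0.85 ± 0.18 (adjusted p = 0.0158), a call lost without 4-hydroxytamoxifen replicate 2 and also without a filter on dim probes. Slc6a20a, an imino acid carrier, was at least 1.75-fold higher and Slc6a15, a neutral amino acid carrier, at least 1.71-fold higher, both not well above background in DMSO. The orphan Slc6a16 stood at 0.06. The group's median was 1.17, 0.79 with dim members at their bounds and 0.42 with normexp background correction.

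The SLC6 carriers of GABA, taurine, creatine, betaine and monoamines gave 6 rises and no fall among the 7 tested of 9. That is 85.7% higher, against 40.3% of all features, and 2 of the 6 entered through 4-hydroxytamoxifen alone. Slc6a8, the creatine carrier, read 1501 and 1824 in DMSO and 4530 and 4077 in 4-hydroxytamoxifen, a rise of 1.45 ± 0.12 (adjusted p = 0.00132). Slc6a6, the taurine carrier, read 7163 and 7104 against 12653 and 10557, a rise of 0.77 ± 0.11 (adjusted p = 0.00478). For both genes every treated array lay above every control.

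The dopamine carrier Slc6a3 read 32.7 and 29.1 in DMSO and 67.8 and 64.0 in 4-hydroxytamoxifen, a rise of 1.16 ± 0.09. The betaine carrier Slc6a12 rose by 0.87 ± 0.11. Slc6a13 (GAT2) stood at 1.15 ± 0.39 with treated arrays far apart, at 58.4 and 27.5, and did not pass (adjusted p = 0.0562). It passed under 8 of 14 alternatives, and its second probe was called higher at 0.89 (adjusted p = 0.0439 in the limma fit over probes). The serotonin carrier Slc6a4 was at least 1.52-fold higher, and its call was lost under 6 of the alternatives, 2 of which leave out an array (DMSO replicate 1 or 4-hydroxytamoxifen replicate 2). The group's median was 1.15 (0.48 with normexp background correction).

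Of the SLC36 carriers, Slc36a1 (PAT1), which exports small neutral amino acids from lysosomes, read 142.6 and 152.8 in DMSO and 390.7 and 381.8 in 4-hydroxytamoxifen. That is a rise of 1.46 ± 0.07 (adjusted p = 0.000522). Slc36a4 (PAT4), a proline and tryptophan carrier, fell from 89.5 and 86.7 to 49.3 and 48.9, by 0.77 ± 0.06 (adjusted p = 0.00122). Slc36a2, well above background on 1 array of each group, stood at -0.05. These 3 of 4 genes thus went in different directions, with a median of -0.05.

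Slc38a5 (SN2), a sodium- and proton-coupled carrier of glutamine, glycine and serine, had the largest difference of any member measured on all 4 arrays. Its probe, on chromosome X at 7857226 to 7857285 of mm9, read 122.5 and 112.9 in DMSO and 859.4 and 897.8 in 4-hydroxytamoxifen. That is a 7.84-fold rise (2.97 ± 0.08, adjusted p = 0.00037), a difference larger than that of 99.1% of all features tested. Slc38a7, a lysosomal glutamine exporter, differed by 0.59 ± 0.09 and Slc38a10 by 0.41 ± 0.06, and neither call survived spike-in scaling.

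Slc38a4 (SNAT4), a neutral amino acid carrier encoded by an imprinted gene, read 1604 and 1684 against 1086 and 1223, a fall of 0.44 ± 0.09 (adjusted p = 0.0119) by its brightest probe. It turned to 0.05 when its probes were averaged. Slc38a1 at 0.07, Slc38a2 at -0.08, Slc38a3 at 0.27 and Slc38a9 at 0.07 did not pass. Of the 8 tested of 10 SLC38 genes, 3 rose and 1 fell (37.5% and 12.5%, against 40.3% and 29.3% of all features). The SLC38 median was 0.17 (0.01 with spike-in scaling).

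All 3 SLC43 genes were called, with 1 rise and 2 falls and a median of -0.70. Of all features tested, 69.5% were called, 40.3% higher and 29.3% lower. Slc43a3, a purine base carrier despite its family, read 1779 and 1525 in DMSO and 484.4 and 460.1 in 4-hydroxytamoxifen, a 3.32-fold fall (-1.73 ± 0.10, adjusted p = 0.000757). Slc43a1 (LAT3), a facilitative carrier of leucine and related amino acids, read 562.3 and 551.5 against 335.2 and 316.4, a fall of 0.70 ± 0.07 (adjusted p = 0.00169). Slc43a2 (LAT4) rose by 0.69 ± 0.13 (adjusted p = 0.0103), a call lost without 4-hydroxytamoxifen replicate 1. Brightest probes of Slc43a1 and Slc43a3 lie 94.7 kb apart on chromosome 2. Of 5 pairs of neighbouring members within 200 kb, this was the 1 pair called the same way. The share of such pairs over all genes was not taken, so this is a description only.

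Of the 71 member probes that passed the filter, 32 were higher and 17 lower in a fit over all probes (69.0%, against 67.3% of 26393 probes), and 17 member genes had at least 2 such probes. In 6 of them all probes were called the same way, in Slc1a1 no probe passed, in 7 a call was joined by probes that did not pass, and 3 (Slc38a1, Slc38a4 and Slc38a9) had probes called in opposite directions. Over all genes with at least 2 called probes, 530 of 3794 (14.0%) had calls both ways, and among members 3 of 9. Each further probe was tested against the brightest probe of its gene, as a difference of differences. This passed in 9 of 24 member pairs, from 7 genes, against 36.0% of 8856 pairs over all genes.

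Slc38a1 (SNAT1), a glutamine and alanine carrier, had 5 probes on the minus strand of chromosome 15. The brightest, at 96406793 to 96406852 of mm9, read 3588 and 3870 in DMSO and 3582 and 3859 in 4-hydroxytamoxifen, and the groups overlapped. A probe 1606 bases toward the 3′ end read 71.5 and 82.3 against 29.2 and 31.0, and its difference minus that of the brightest was -1.35 ± 0.09 (adjusted p = 0.00327). The 2 probes nearest the 3′ end rose, by 0.93 and 0.70, and the probe between stood at 0.12.

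Slc38a9, a lysosomal carrier that senses arginine for mTORC1, had 4 probes, in 5′ to 3′ order at 0.44, 0.07, 0.998 and -1.01. The third read 1377 and 1606 against 2832 and 2826 and exceeded the brightest by 0.92 ± 0.12 (adjusted p = 0.00873), while the fourth missed the threshold against it (adjusted p = 0.0568). Slc38a2 (SNAT2), the amino acid-regulated system A carrier, had a probe that read 2615 and 2490 against 1196 and 1225, whereas its brightest probe, nearer the 3′ end, read 5331 and 5443 against 4873 and 4842. Those differed by -0.93 ± 0.09 (adjusted p = 0.00507).

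Slc7a6 had a second probe that read 453.4 and 436.6 in DMSO and 151.5 and 158.3 in 4-hydroxytamoxifen, a difference of -1.45. Minus that of the brightest, it was -1.34 ± 0.10 (adjusted p = 0.00366). It lies on chromosome 8, 2347 bases from the probe of Slc7a6os, the opposite-strand neighbour, which read 1366 and 1325 against 623.4 and 653.7 and fell by 1.01 ± 0.07 (adjusted p = 0.000857). The brightest Slc7a6 probe lies 3670 bases from it, and the RefSeq models of these genes do not overlap. Slc7a14 (-2.58 ± 0.31, adjusted p = 0.00726), Slc38a4 (0.99 ± 0.16, adjusted p = 0.0144) and Slc1a2 (-0.85 ± 0.20, adjusted p = 0.0342) also had a probe that differed from the brightest. Which exon or transcript end each probe reads was not determined here.

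**Figure D4:**
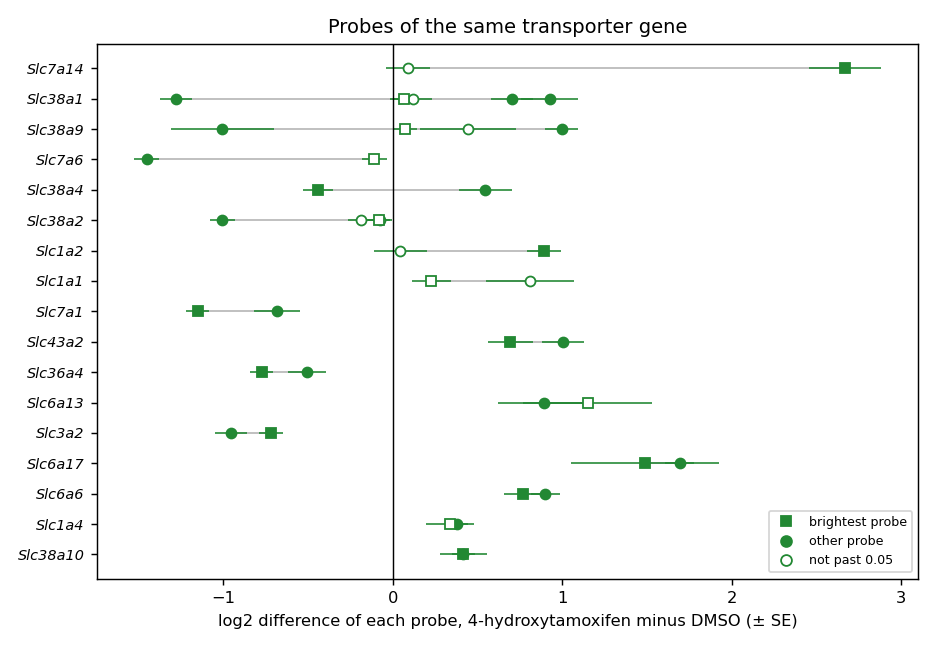
Log2 difference of each passing probe (± SE of the limma fit) for the 17 member genes with at least 2; squares are the brightest probe, circles the others, and open symbols did not pass an adjusted p of 0.05 over all passing probes. The widest spreads were in Slc7a14, Slc38a1 and Slc38a9, while the probes of Slc38a10 and Slc1a4 lay close together.

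Other amino acid genes were read beside the members. Over all features tested, 40.3% were higher and 29.3% lower, or 32.9% and 37.5% with scaling on array medians. Among 20 tested of 25 other carriers of amino acids and peptides, 11 rose and 3 fell (55% and 15%), with a median of 0.30. Scaling on array medians gave 8 and 6. Slc32a1, the vesicular GABA and glycine carrier, rose by 3.34 ± 0.11 and the lysosomal cystine exporter Ctns by 2.12 ± 0.06. Slc25a2 and Slc25a15, mitochondrial ornithine carriers, fell by 2.56 and 1.19, and the vesicular glutamate carrier Slc17a7 was at least 1.71-fold lower.

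Of 30 genes of the ATF4 amino acid response, 13 rose and 11 fell (43.3% and 36.7%), with a median of 0.09. Scaling on array medians turned that to 10 and 13. The stress regulators Nupr1 and Ddit3 (CHOP) each rose by 1.52 and Chac1, a glutathione-degrading enzyme, by 1.19. The serine and folate enzymes Shmt2 and Phgdh fell by 1.23 and 1.12, and the ATF4 inhibitor Trib3 fell by 1.18. Atf4 itself stood at -0.19 (adjusted p = 0.299). Of the members with the ATF4 motif in a promoter window, Slc7a11 and Slc7a7 were called higher, Slc7a7 not with spike-in scaling. Slc1a4 was called higher by its second probe but not by its brightest. Of all tested members 48.9% were called higher, and of all features 40.3%. Whether the motif bears on these values was not tested.

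Enzymes of amino acid synthesis and breakdown gave 16 rises and 11 falls among 38 tested of 43 (42.1% and 28.9%). Their median was 0.14 (12 rises and 16 falls on array medians). The methionine-forming enzyme Bhmt was at least 5.07-fold higher, serine dehydratase Sds at least 1.61-fold higher, and cysteine dioxygenase Cdo1 rose by 1.42. Ahcy, which clears S-adenosylhomocysteine, fell by 1.51, the glutaminase Gls2 by 1.39 and Shmt1 by 1.13. Of 32 genes that pass amino acid signals to mTORC1, 12 rose and 9 fell (37.5% and 28.1%). Their median was -0.00 (10 rises and 12 falls on array medians). The Rag GTPases went apart, with Rragd at -3.17 ± 0.06, Rragb at -0.87 and Rragc at 0.98. The folliculin partner Fnip1 rose by 1.06 and Mios, a GATOR2 subunit, fell by 0.84. The leucine-sensor relative Sesn3 rose by 0.71 by its brightest probe and stood at -0.10 with probes averaged.

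The 15 members without a tested probe were Slc1a7, Slc36a3, Slc38a8, Slc38a11, Slc6a2, Slc6a5, Slc6a11, Slc6a14, Slc6a18, Slc6a19, Slc6a20b, Slc7a10, Slc7a12, Slc7a13 and Slc7a15. Only Slc38a11 had a probe well above background on any array, DMSO replicate 2. Levels of these genes are bounded by the array's background and were not shown to be absent.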

How the data were processed

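Total RNA of the 4 samples was hybridised to 1-colour Agilent arrays (design 014868, mm9, per the file headers). The deposited scanner files hold intensity values, background-subtracted and detrended within each array by Agilent Feature Extraction 10.7.3.1, per the file headers, whereas the submitters' processing notes name version 9.5. The deposited value table, used as an alternative, holds log2 values of the same arrays.

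Control and outlier spots (60 to 71 per array) were left out, spots of a probe were averaged, and log2 signals were scaled to each array's 75th percentile. The brightest probe well above background on at least 2 of 4 arrays stood for its gene. Names were updated through a RefSeq table (GRCm38.p6); 33634 of 41174 probes matched, including all 110 member probes. The test was lmFit and eBayes of limma 3.58.1 (R 4.3.3), tested on simulated data first, with Benjamini-Hochberg adjustment over all 17537 features. Members not well above background in either array of a group have only a bound: the bright group's mean over the dim group's mean after raising each dim signal to at least the array's lowest signal well above background (15.0 to 19.5).

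The labels number the replicates without saying whether they were separate cultures, so a p-value reflects only how these samples vary, which may be technical. Deviations of same-numbered arrays correlated at -0.05, so numbers were not taken as pairs. Members and gene lists were chosen with earlier results of these data known. Genes named were members with called differences of at least 2-fold, the extremes of each family, all tested heavy and light chains, members with probes called both ways, and up to 3 called genes in each direction of the other lists; others named, and the test of a probe against its gene's brightest, were chosen after values were seen. Some of these genes are not reported here.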

Additional observations from a re-analysis of the deposited data

How the results depend on the processing

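Across 14 alternatives the members higher numbered 17 to 26 and those lower 10 to 12, and 23 of the 33 called members kept their call in each. The replicate block gave 26 higher and 10 lower. The members' median of 0.41 became 0.24 with median scaling, 0.29 with quantile normalization, 0.25 with spike-in scaling, 0.25 with normexp, 0.25 with the filter on all 4 arrays and 0.31 without a filter, and 0.39 to 0.44 with an array left out. The median of all features was 0.11, -0.06 with median scaling and -0.05 with spike-in scaling, so differences of that size have no settled direction. When all probes of a gene were averaged, Slc38a4 turned to 0.051 and Sesn3 to -0.10. Spike-in scaling took the call from Slc1a6, Slc38a7, Slc38a10, Slc7a7 and Slc7a8. The log2 spike-in level was 7.34 and 7.61 in the DMSO arrays, whose 75th percentiles were 737 and 744, so this scaling sets the DMSO arrays apart. It was 7.54 and 7.59 in 4-hydroxytamoxifen. Over all features it gave 26.7% higher and 27.3% lower, against 40.3% and 29.3% in the main fit.

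In the other lists, carriers that fell numbered 6 with median scaling and 1 with the filter on all 4 arrays. With spike-in scaling the genes higher were 8 in the ATF4 list, 10 in synthesis and breakdown and 5 in mTORC1 sensing. Without a filter 6 ATF4 genes and 5 sensing genes were lower. With an array left out, ATF4 genes lower ranged from 7 to 8 (7 without DMSO replicate 1 or either 4-hydroxytamoxifen array), sensing genes lower from 5 to 8 (5 without DMSO replicate 2 or 4-hydroxytamoxifen replicate 1), and other carriers higher from 6 to 9 (6 without 4-hydroxytamoxifen replicate 1). The cause was not tested. A group left with 1 array was assumed to vary like the other. Signal near background limits the members given as bounds and the 15 not tested.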
